A study of Mus musculus with 49 samples.

Results

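The comparison described here set nuclear RNA against ribosome-bound RNA from D2 medium spiny neurons (D2-MSNs) of the mouse nucleus accumbens (NAc), the forebrain region that receives dopamine signals on reward and motivation. Its members were chosen by label: the 5 nuclear-FACS libraries and the 6 RiboTag libraries of D2-MSNs from mice labelled male, 11 of the 49 samples of the series. The series also holds whole cell-FACS libraries, D1-MSN libraries of each method and RiboTag libraries labelled female, and asked how the way of isolating RNA changes the picture of a cell type. All mice of the series were on a C57BL/6J background and supplied 1 sample each, and those of the 11 libraries carried Drd2-cre. The nuclear mice heterozygously carried Drd2-cre x Thy1-loxPSTOPloxP-EGFP-F, in which Cre releases a GFP label of nuclei driven from the Thy1 promoter, and their nuclei were sorted from frozen tissue after a sucrose gradient. The RiboTag mice carried Drd2-cre x Rpl22-loxPexon4loxP-exon4-HA, in which Cre gives the ribosomal protein Rpl22 an HA tag, and tagged ribosomes were immunoprecipitated from fresh tissue. The age of the mice is not given in the sources used here. RNA compartment, reporter line, frozen or fresh tissue, and sorting or immunoprecipitation changed together between the groups and cannot be told apart. The Drd2 promoter also drives Cre in cholinergic interneurons, so the labelled cells need not all be MSNs.

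Medium spiny neurons are the GABAergic projection neurons of the striatum. D2-MSNs carry the dopamine receptor Drd2 and the adenosine receptor Adora2a and make the opioid peptide precursor Penk, whereas D1-MSNs carry Drd1 and make Tac1 and Pdyn. A nucleus holds transcripts that are still being made and spliced, so that introns add to its RNA in long genes, together with RNAs that stay in the nucleus. RNA bound to ribosomes is largely mature mRNA in translation, and ribosomal RNA comes down with it.

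For 52636 genes, the deposited values are raw fragment counts over the whole gene body, introns included, taken without strand, and a fragment adds to every gene that it overlaps. Total counts were 35944738, 47079150, 46983792, 38446843 and 3701255 in the nuclear libraries, whose columns are numbered 1, 2, 3, 5 and 7, and 24076888 to 42678808 in the RiboTag libraries. A count was recorded on 34107 to 50663 genes in nuclear and on 20217 to 22508 genes in RiboTag libraries. A ribosomal RNA locus on chromosome 17 (CT010467.1, Gm42418 and AY036118, which overlap each other) took 3.46 to 10.9% of nuclear and 73.7 to 75.9% of RiboTag counts. The density of counts over 1429 olfactory and vomeronasal receptor genes, which striatal neurons should not use, served as a measure of background. Spread over all gene spans, it amounted to 45.9, 31.6, 33.4, 50.6 and 32.2% of the counts of nuclear libraries 1, 2, 3, 5 and 7, and to 0.021 to 0.034% of those of RiboTag libraries. The plot of library composition shows these gaps. Because composition differed so much, the TMM scaling factors were 3.71 to 4.99 in nuclear and 0.284 to 0.333 in RiboTag libraries, and every fold change below is relative to that scaling. Levels are given as CPM, counts relative to the library's total after TMM scaling, and 3 counts, taken as the floor of detection, stand for 0.0157 to 0.212 CPM in nuclear and 0.24 to 0.374 CPM in RiboTag libraries. Floors cover counting error only.

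**Figure D1:**
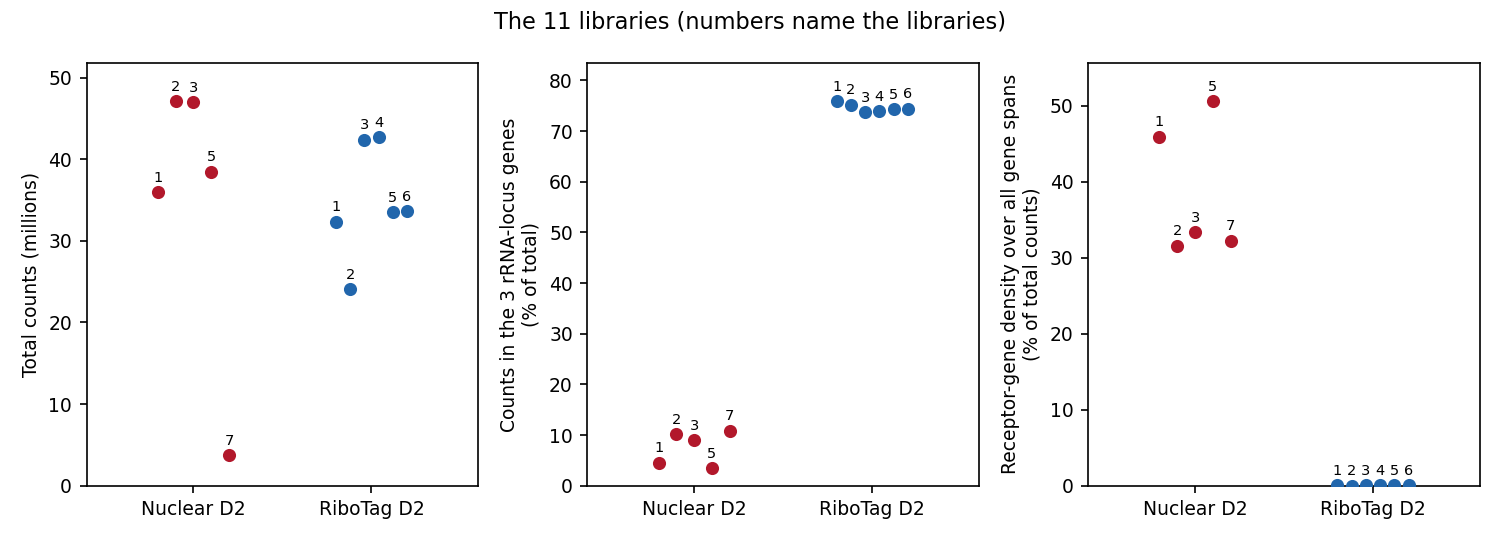
Total counts and the percentages of counts on the ribosomal RNA locus and in the estimated background for each of the 5 nuclear and 6 RiboTag libraries (1 point a library). Nuclear library 7 is the shallowest, at 3701255 counts, the ribosomal RNA locus takes 73.7% or more of every RiboTag library, and the background 31.6% or more of every nuclear library.

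Nearly all genes differed between the nuclear and the ribosome-bound pool. Of 32679 genes with more than 1 FPM (fragments relative to the library's raw total, in the unit of CPM but before TMM scaling) in at least 2 libraries, 22010 (67.4%) were called higher in nuclear and 7996 (24.5%) higher in RiboTag libraries by edgeR's quasi-likelihood test, at an adjusted p of at most 0.05 and an absolute log2 fold change above 0.38 (the 30% change that the study used). In all, 91.8% of genes were called, so that a call by itself sets no gene apart. In 79.1% of genes the groups did not overlap in CPM. Positive log2 fold changes stand for higher nuclear levels throughout, ± gives the standard error, and n is 5 nuclear and 6 RiboTag libraries.

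Since TMM factors were 3.71 to 4.99 in nuclear and 0.284 to 0.333 in RiboTag libraries, 1 FPM stands for a lower CPM after scaling in nuclear than in RiboTag libraries. Among the 10069 genes above 1 FPM in both kinds of library, 1900 (18.9%) were called higher in nuclear and 6876 (68.3%) higher in RiboTag libraries, with a median log2 fold change of −1.21 and quartiles of −2.42 and −0.01. Another 22459 genes passed this level in nuclear libraries alone, and 20110 of them were called higher there and 969 in RiboTag libraries, a direction that the filter largely set. Only 148 genes passed it in RiboTag libraries alone, with a median span of 0.69 kb, and these were all called higher in RiboTag libraries. When the scale was set on the 10069 shared genes alone, all values moved up by a median of 1.26, and 4293 genes (42.6%) were higher in nuclear and 4040 (40.1%) in RiboTag libraries. The other scalings tried moved the median by −0.102 to 0.379. The level of a single gene is therefore best read against the median of −1.21.

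The nuclear density of many genes lay close to the background. The median gene tested had 2.22 times the receptor density per kb in nuclear libraries, and the median gene above 1 FPM in both kinds had 2.67 times. The receptor genes themselves were among the calls. All 1127 tested passed the filter in nuclear libraries alone, which largely set their direction in advance. Of these, 1123 were called higher in nuclear libraries, at a median of 1.09 times their own average density. No count in any RiboTag library was found for 1329 of all 1429. After subtraction of this background, 19264 genes (63.4%) were called higher in nuclear and 7548 (24.9%) in RiboTag libraries, or 88.3% of 30363 tested. Beside some of the genes below, the density over this background is given, and where it is left out the nuclear level may still lie near the background.

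The genes that define D2-MSNs were far more abundant among ribosome-bound than nuclear RNA. All 5 D2-MSN markers analysed were called higher in RiboTag libraries, with a median log2 fold change of −4.64, and their summed level was 61.7 to 159 CPM in nuclear and 2459 to 2926 CPM in RiboTag libraries. Penk, the precursor of the enkephalins (chr4:4133531-4138819, overlapping another gene), had 9.57, 18.9, 20.8, 2.57 and 11.4 CPM in nuclear libraries 1, 2, 3, 5 and 7. In RiboTag libraries it had 2124 to 2523 CPM, with a median of 2276 CPM. Penk thus gave the widest gap of the markers, a log2 fold change of −7.50 ± 0.411 (edgeR adjusted p = 6.71e-15), or 181-fold, and no nuclear library came near any RiboTag library. Per kb of gene span, the FPKM of Penk averaged 2.39 ± 1.4 (SD, n = 5) in nuclear and 434 ± 30.3 (SD, n = 6) in RiboTag libraries. Its nuclear level was lowest in libraries 5 and 1, the pair with the highest background, and after background subtraction its log2 fold change was −6.76.

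The receptors and the transcription factor on the D2 list differed among themselves. Gpr6, an orphan G protein-coupled receptor of D2-MSNs, had 0.436, 0.622, 0.696, 0.194 and 0 CPM in nuclear and 33.8 to 47.1 CPM in RiboTag libraries, a log2 fold change of −6.44 ± 0.27. Adora2a, the adenosine receptor of D2-MSNs, had 4.95, 5.76, 6.55, 4.48 and 5.29 CPM in nuclear and 125 to 152 CPM in RiboTag libraries (−4.63 ± 0.152). Sp9, a transcription factor needed for the development of D2-MSNs, had 1.43 to 2.68 CPM and 34.7 to 49.5 CPM (−4.64 ± 0.16). None of these groups overlapped. In nuclear libraries Gpr6, Sp9 and Adora2a lay at 2.29, 1.95 and 4.10 times the background density, where the median of all genes tested was 2.22. After background subtraction their log2 fold changes were −6.29, −5.02 and −4.22.

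Drd2 itself stood apart from the other markers. Drd2 spans 67.6 kb (chr9:49340627-49408177), of which 3.77% is exon, and supplies the promoter of the Cre driver in both groups. It had 94.1, 112, 129, 53.1 and 68.1 CPM in nuclear libraries 1, 2, 3, 5 and 7 and 133 to 173 CPM in RiboTag libraries, with a median of 142 CPM. Every nuclear library lay below every RiboTag library, but the nuclear level reached 18.4 times the background density. The log2 fold change was −0.69 ± 0.178 (edgeR adjusted p = 0.000849), above the median of −1.21 of shared genes, while it was 0.05 after background subtraction (adjusted p = 0.812) and 0.54 when shared genes alone set the scale (adjusted p = 0.00221). With DESeq2's size factors it was −0.33, within the fold threshold, so that both the call and the direction for Drd2 depended on the scaling. Per kb of span, the nuclear FPKM of Drd2 was 1.35 ± 0.462 (SD, n = 5), below Penk but above Adora2a (0.302 ± 0.0442) and Gpr6 (0.169 ± 0.126). In RiboTag libraries Drd2 had the lowest FPKM of the 5 markers, at 2.19 ± 0.231 (SD, n = 6), next to Sp9 at 3.34 ± 0.416. The span includes introns, and exons make up 3.77% of it in Drd2, 17.1% in Adora2a and 77.3% in Gpr6. The RiboTag order therefore does not rank these genes by mRNA per kb of exon.

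**Figure D2:**
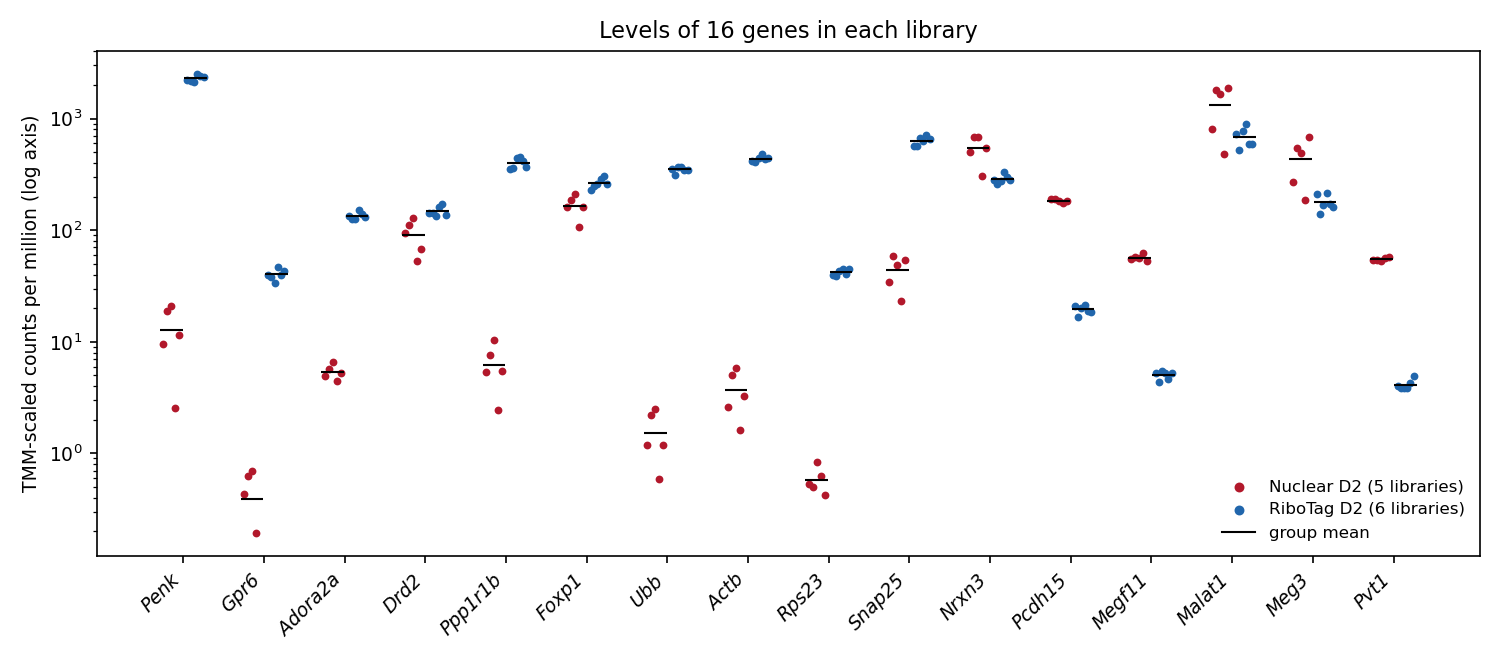
Levels in CPM after TMM scaling (log axis) of marker and named genes in each nuclear and RiboTag D2 library (1 point a library). Short lines give group means. Adora2a (24.8-fold), Gpr6 (86.7-fold) and Penk (181-fold) lie far higher in RiboTag libraries, Drd2 differs by 1.61-fold, and the long gene Nrxn3 and the nuclear RNA Meg3 lie higher in nuclear libraries. Gpr6 has no count in nuclear library 7, which a log axis cannot show.

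The 12 markers that D1- and D2-MSNs share were also all called higher in RiboTag libraries, with a median of −2.71, and 11 of them were so called after background subtraction. Their summed level was 446 to 1159 CPM in nuclear and 3787 to 4742 CPM in RiboTag libraries. Ppp1r1b, which encodes the dopamine-regulated phosphatase inhibitor DARPP-32, had 5.34, 7.67, 10.3, 2.44 and 5.43 CPM in nuclear and 352 to 456 CPM in RiboTag libraries (−5.99 ± 0.284), and the groups did not overlap. Rasd2, a striatal small GTPase, changed by −5.21 ± 0.268.

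Long MSN genes gave smaller gaps. Adcy5, the main striatal adenylyl cyclase, spans 151 kb and had a log2 fold change of −2.67 ± 0.209. Pde10a, the striatal phosphodiesterase, spans 461 kb and had 210.3, 308, 359, 116 and 242 CPM in nuclear against 542 to 779 CPM in RiboTag libraries (−1.48 ± 0.212). Foxp1, a transcription factor of striatal neurons that spans 597 kb, had 161, 187, 211, 107 and 160 CPM against 228 to 307 CPM. Its log2 fold change of −0.68 ± 0.159 became 0.56 when shared genes alone set the scale, and that of Arpp21, a cAMP-regulated phosphoprotein gene, went from −1.18 ± 0.185 to 0.03. On that scale Pde10a (−0.26) and Rgs9 (−0.2, from −1.42 ± 0.225) were no longer called. Nuclear library 5 was the lowest nuclear library for each of the 12 genes.

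D1-MSN markers were present at low levels in both groups. Their summed level was 76.4 to 83.6 CPM in nuclear and 52.5 to 85.1 CPM in RiboTag libraries, of which 49.2 to 56.6 CPM in nuclear libraries belonged to Ebf1 alone. Drd1 had 0.672 to 2.09 CPM in nuclear and 13.1 to 27.3 CPM in RiboTag libraries (−3.87 ± 0.23). Tac1, the substance P precursor, had 0.847 to 2.65 and 14.4 to 22.7 CPM (−3.33 ± 0.173), and Pdyn, the dynorphin precursor, had 2.44 to 3.37 and 12.7 to 22.4 CPM (−2.39 ± 0.15). Chrm4, a muscarinic receptor, was likewise higher in RiboTag libraries, at −3.16 ± 0.261. Per kb of span, Drd1 had an FPKM of 4.89 ± 1.15 and Adora2a of 7.49 ± 0.556 (SD, n = 6) in RiboTag libraries. Exons make up 80.2% of the span of Drd1 but 17.1% of that of Adora2a, so these values do not compare their mRNA per kb of exon. In nuclear libraries Drd1 lay at 4.70 times the background density.

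Of the transcription factors among the D1 markers, Ebf1 (391 kb) was called higher in nuclear libraries at 4.26 ± 0.2 and Eya1 (141 kb) at 3.41 ± 0.153, with nuclear densities of only 1.80 and 1.71 times the background. Isl1, an 11.4 kb gene, had 1.13 to 2.28 CPM in nuclear and 0.873 to 2.64 CPM in RiboTag libraries, groups that overlapped (0.13 ± 0.227, edgeR adjusted p = 0.582). In bulk samples such as these, fewer cells of a type and less RNA per cell cannot be told apart.

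The machinery of translation was almost entirely on the RiboTag side. Of 82 cytosolic ribosomal protein genes tested, 78 were called higher in RiboTag libraries and 2 in nuclear libraries, and the 72 above 1 FPM in both kinds were all called higher in RiboTag libraries, with a median of −3.81 against −1.21 for all such genes. The 2 called higher in nuclear libraries, Rpl10l and Rpl39l, had no count in any RiboTag library. Summed over the list, the level was 68.9 to 106 CPM in nuclear and 1233 to 1342 CPM in RiboTag libraries, and the median nuclear density was 2.98 times the background. Many genes of this family have processed copies elsewhere in the genome and fragments aligned to several places were left out, so their levels are uncertain.

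Rpsa, a protein of the small ribosomal subunit, had the highest mean CPM on the list, a ranking that is not per kb. It had 1.36, 2.88, 2.48, 1.11 and 1.76 CPM in nuclear and 63.7 to 75.2 CPM in RiboTag libraries (−5.18 ± 0.215). Rps23, another small subunit protein, had the largest change of the family to the RiboTag side, from 0.423 to 0.83 CPM in nuclear to 38.9 to 44.8 CPM in RiboTag libraries (−6.10 ± 0.166, edgeR adjusted p = 7.3e-20). Rpl22, whose allele carries the tag in the RiboTag mice, had 1.69 to 2.17 CPM in nuclear and 7.23 to 10.6 CPM in RiboTag libraries (−2.12 ± 0.134), a smaller gap than the median of its family. Because its locus is altered in 1 group only, the part of the altered allele in this value was not tested.

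Ribosomal protein mRNAs are known for a short pyrimidine run at their start, the terminal oligopyrimidine motif, through which mTOR signalling sets their translation. The 30 bases around the RefSeq start site (15 before and 15 after, build GRCm38.p6) are shown for 6 family members. The first has the highest RiboTag level. The other 5, also of high RiboTag level, hold the motif CTTTC, the motif CTTTT or the motif CTTCC. These 5-base motifs are in capitals. The first, Rpsa, holds none of them. A match in the window need not lie at the start of the mRNA, and in Rpl4 it lies before the annotated start. All 6 were higher in RiboTag libraries, by log2 fold changes of −5.18 (Rpsa), −5.01 (Rpl4), −5.99 (Rplp2), −5.46 (Rps6), −6.10 (Rps23) and −5.02 (Rpl13a).
Rpsa, chr9:120127751-120127780, plus strand: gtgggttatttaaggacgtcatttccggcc
Rpl4, chr9:64173372-64173401, plus strand: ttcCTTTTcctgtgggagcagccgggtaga
Rplp2, chr7:141447636-141447665, plus strand: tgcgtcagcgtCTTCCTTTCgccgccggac
Rps6, chr4:86857353-86857382, minus strand: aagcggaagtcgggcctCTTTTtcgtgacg
Rps23, chr13:90923107-90923136, plus strand: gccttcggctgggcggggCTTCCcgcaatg
Rpl13a, chr7:45128731-45128760, minus strand: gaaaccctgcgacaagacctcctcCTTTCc

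Of 75 start sites annotated for 63 ribosomal protein genes, 29 (38.7%) held at least 1 of these motifs on the gene's strand, against 13% of 32851 start sites of 27025 genes. On the opposite strand the shares were 16.0 and 13.1%. CTTTC was in 22.7 against 4.05%, CTTTT in 8.00 against 3.15% and CTTCC in 18.7 against 6.63% of windows, and motifs can overlap, as in Rplp2. Translation factors (13.3% of 30 start sites) and the long adhesion genes described below (12.8% of 39) lay near the share of all genes, while the median log2 fold change of translation factors was −3.46 and that of ribosomal proteins −3.81. These matches describe the windows only.

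All 30 translation factors were called higher in RiboTag libraries, with a median of −3.46. Eef1a2, the neuronal form of the elongation factor that brings aminoacyl-tRNA to the ribosome, had 3.82, 7.19, 5.44, 2.99 and 8.61 CPM in nuclear and 259 to 315 CPM in RiboTag libraries (−5.73 ± 0.241). Its more general counterpart Eef1a1 had 2.08 to 3.55 CPM and 171 to 191 CPM (−6.05 ± 0.178). Summed over the list, the level went from 129 to 205 CPM in nuclear to 1730 to 2014 CPM in RiboTag libraries.

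Protein folding genes showed a wider gap still. All 19 chaperones were called higher in RiboTag libraries, with a median of −4.4 and summed levels of 65.1 to 131 CPM against 3339 to 3735 CPM. Hsp90ab1, a constitutive heat shock protein 90, had 6.10, 16.1, 15.6, 5.56 and 14.1 CPM in nuclear and 970 to 1109 CPM in RiboTag libraries (−6.52 ± 0.296). Hspa8, the constitutive heat shock cognate protein, had 4.67, 10.4, 10.3, 4.10 and 7.48 CPM against 646 to 704 CPM (−6.53 ± 0.262). For both genes, nuclear libraries 1 and 5 were the lowest.

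Energy metabolism followed the same direction. All 16 glycolytic enzymes were higher in RiboTag libraries, with a median of −3.98, and Aldoa, the fructose-bisphosphate aldolase, had 3.15 to 6.63 CPM in nuclear and 310 to 378 CPM in RiboTag libraries (−6.22 ± 0.206). Of 85 nuclear-encoded respiratory chain genes, 77 were called higher in RiboTag and 7 in nuclear libraries, and 3 of the family (Cox6b2, Cox8b and Cox8c) had no RiboTag count. The 76 above 1 FPM in both kinds were all higher in RiboTag libraries, with a median of −3.26. Cox5b, a subunit of cytochrome c oxidase, gave the largest change to the RiboTag side, from 0.289 to 0.807 CPM to 64.3 to 80.8 CPM (−7.00 ± 0.222), and Atp5b, a subunit of ATP synthase, had the highest CPM, at 327 to 389 CPM in RiboTag libraries (−6.45 ± 0.229).

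All 13 genes of the mitochondrial genome were called higher in RiboTag libraries as well. Their summed level was 14.6 to 60.0 CPM in nuclear and 575 to 695 CPM in RiboTag libraries, and the median of the 9 members above 1 FPM in both kinds was −3.96. These transcripts are translated by mitochondrial ribosomes, which do not hold Rpl22. mt-Nd5, a complex I subunit, had 5.25, 14.4, 13.3, 4.06 and 7.48 CPM in nuclear and 91.7 to 113 CPM in RiboTag libraries (−3.54 ± 0.254). mt-Atp6, an ATP synthase subunit, reached 0.046 CPM at most in nuclear libraries, 0.446 times the background density, against 69.3 to 82.9 CPM in RiboTag libraries (−11.37 ± 0.266). How far RNA of organelles that came along with either preparation adds to these levels was not tested.

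Of 39 proteasome subunit genes, 32 were called higher in RiboTag and 5 in nuclear libraries, 2 of the list (Psmb9 and Psmb11) having no RiboTag count, and the 33 above 1 FPM in both kinds had a median of −2.48. Psmb6, a catalytic core subunit, had the largest gap to the RiboTag side, from 0.48 to 1.06 CPM to 12.2 to 16.6 CPM (−4.52 ± 0.174). Neuropeptide and secretory granule genes had 14 of 15 members higher in RiboTag libraries and none in nuclear libraries, with a median of −3.86. For immediate early genes, the quickly induced transcription factors and their companions, the counts were 15 and 0 of 19, with a median of −3.77 over 13 members. Egr1, of this group, had 1.83 to 4.02 CPM in nuclear and 53.7 to 82.7 CPM in RiboTag libraries (−4.58 ± 0.207), and Jund had the largest change (−5.89 ± 0.257). Frozen tissue supplied the nuclear and fresh tissue the RiboTag libraries, which cannot be told apart from the compartment for these genes.

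Cytoskeletal genes had 26 of 27 members higher in RiboTag libraries, with a median of −3.95. Actb, beta-actin, had 2.58, 5.08, 5.83, 1.63 and 3.25 CPM in nuclear and 409 to 479 CPM in RiboTag libraries (−6.88 ± 0.288), and Actg1, gamma-actin, changed by −6.94 ± 0.247. Map1a, a microtubule-associated protein of dendrites, had the highest CPM on the list at 875 to 1046 CPM, against 10.4 to 26 CPM in nuclear libraries (−5.71 ± 0.246).

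**Figure D3:**
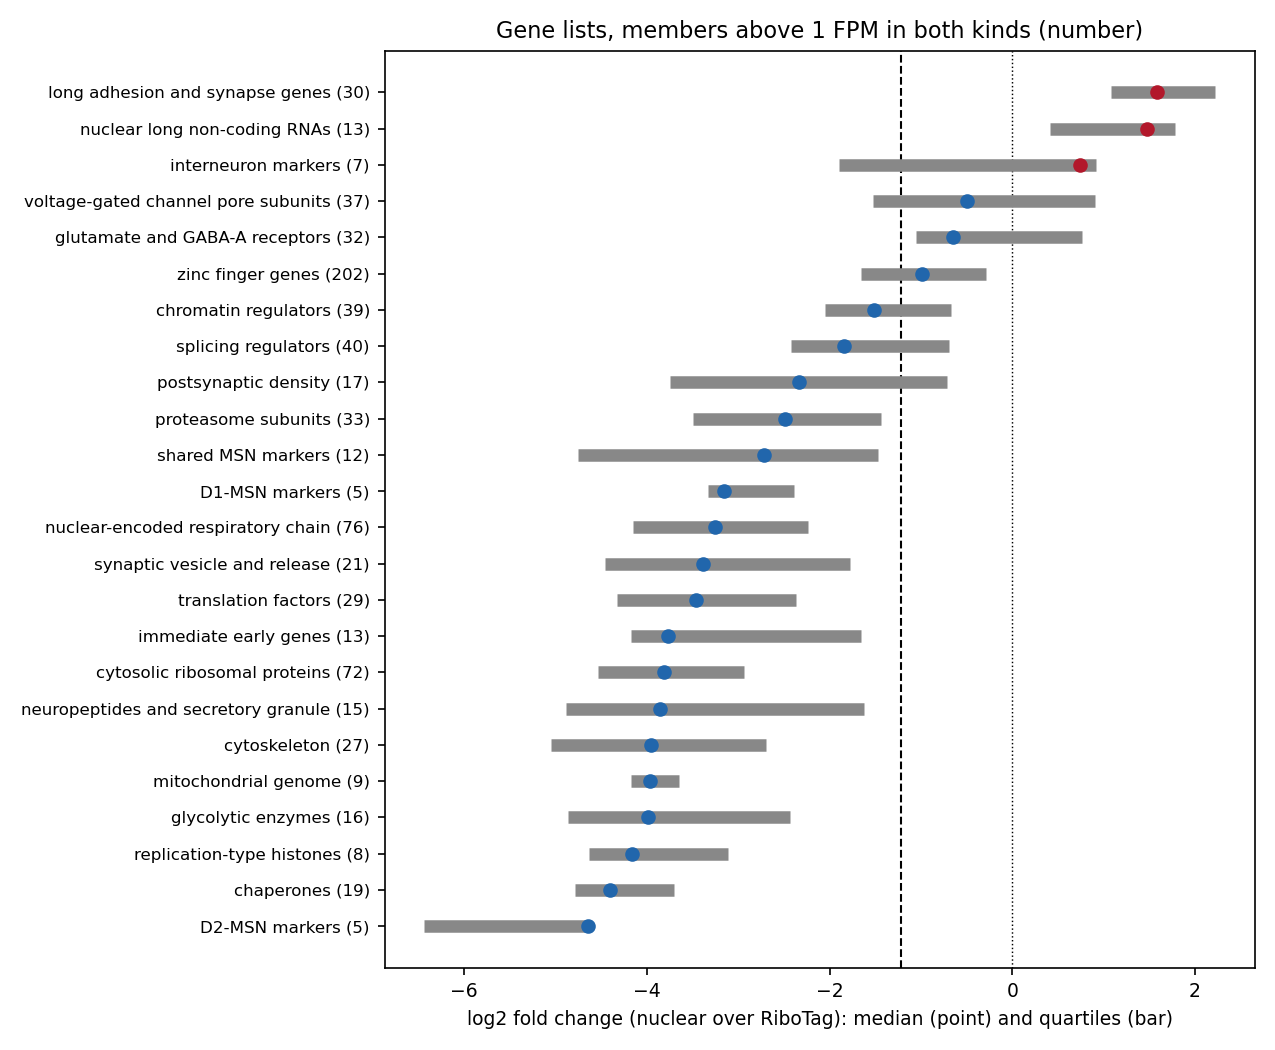
Median log2 fold change, nuclear over RiboTag, of each gene list over its members above 1 FPM in both kinds of library, with bars for the quartiles. The dashed line marks the median of −1.21 over all 10069 such genes. Chaperones (−4.4), ribosomal proteins (−3.81) and translation factors (−3.46) lie far to the RiboTag side, nuclear long non-coding RNAs (1.47) and long adhesion genes (1.58) to the nuclear side.

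Applied to all protein-coding genes that overlap no other gene and pass 1 FPM in every library, the naming rule gave the genes with the largest changes to the RiboTag side. Ubb, a polyubiquitin gene, had 1.19, 2.20, 2.48, 0.588 and 1.20 CPM in nuclear and 312 to 369 CPM in RiboTag libraries (−7.80 ± 0.309), the widest gap. Lars2, the mitochondrial leucyl-tRNA synthetase, changed by −7.03 ± 0.385, and it took 0.96% of the counts of the median RiboTag library. Pnmal2 (−7.00 ± 0.257), Cox5b, Actb, Bex2 (−6.87 ± 0.246), the neurite outgrowth gene Ncdn (−6.82 ± 0.224), Magee1 (−6.69 ± 0.215) and Hsp90ab1 were also in the set. Apart from Lars2, which spans 95.7 kb, these genes span 9.69 kb at most.

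A few genes took large shares of RiboTag counts beside the ribosomal RNA locus. Cmss1 and Filip1l, which overlap on chromosome 16, took 3.47% each in the median RiboTag library and 0.346 and 0.342% in the median nuclear library. Zc3h7a, which holds the small gene Gm23935 within it, took 1.77 against 0.217%, Arhgap21 took 0.833 against 0.0176%, and the non-coding gene Gm19951 took 0.807 against 0.089%. Cdk8 had like shares in both, 0.54 and 0.567%. Since fragments were counted over whole gene bodies, these shares need not come from the genes' exons, and where they lie within the genes was not tested.

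Synaptic genes were divided, the shortest of those named lying further to the RiboTag side than the longest. Of 21 genes of synaptic vesicles and transmitter release, 20 were called higher in RiboTag libraries and 1 in nuclear libraries, with a median of −3.38. Slc32a1, which loads GABA into vesicles, had 1.34, 1.38, 1.46, 1.02 and 1.76 CPM in nuclear and 68.2 to 82.1 CPM in RiboTag libraries (−5.78 ± 0.159). The GABA-making enzymes Gad1 (8.93 to 15.4 against 159 to 194 CPM, −3.82 ± 0.159) and Gad2 (9.84 to 16.2 against 268 to 321 CPM, −4.46 ± 0.174) followed. Rab3a, a vesicle GTPase (−6.17 ± 0.232), the vesicle SNARE Vamp2 (−5.62 ± 0.229) and the complexin Cplx2 (−5.61 ± 0.246) had gaps of similar size to Slc32a1, all in genes of at most 12.6 kb.

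Longer release genes differed, Snap25 lying beyond the list median of −3.38 and the far longer Syt1 and Rims1 closer to even. Snap25, a SNARE of the plasma membrane, spans 69 kb and had 34.5, 58.5, 48.4, 23.2 and 53.8 CPM in nuclear and 571 to 714 CPM in RiboTag libraries (−3.87 ± 0.214). Syt1, the calcium sensor of release, spans 513 kb and had a log2 fold change of −1.43 ± 0.18. Rims1, an active zone scaffold of 520 kb, was the member higher in nuclear libraries, with 107, 144, 122, 80.0 and 136 CPM against 69.6 to 92.5 CPM (0.49 ± 0.148, edgeR adjusted p = 0.00332), and nuclear library 5 overlapped the RiboTag range.

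The postsynaptic density list held 13 members higher in RiboTag and 3 higher in nuclear libraries of 17. Ddn, dendrin, a gene of 5.71 kb whose mRNA is found in dendrites, had 1.12 to 3.23 CPM in nuclear and 246 to 278 CPM in RiboTag libraries (−6.80 ± 0.253). Camk2a, the calmodulin-dependent kinase whose mRNA is also dendritic, had 28.2 to 71.3 against 737 to 861 CPM (−3.98 ± 0.22), and the dendritic microtubule protein gene Map2 had 41.9 to 82.2 against 751 to 830 CPM (−3.61 ± 0.185). The scaffold genes were spread out: Dlg4 (PSD-95, 30.6 kb) at −3.74 ± 0.207, Shank3 (60.6 kb) at −2.33 ± 0.137, Dlg2 (PSD-93, 1970 kb) at 0.36 ± 0.174 and Dlgap1 (852 kb) at 1.38 ± 0.154. Dlg2 was not called (edgeR adjusted p = 0.0551), with 421, 563, 516, 249 and 468 CPM in nuclear and 307 to 415 CPM in RiboTag libraries, and it was called without nuclear library 1 (0.39), nuclear library 5 (0.47) or RiboTag library 4 (0.41).

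Very long genes for cell adhesion and synapse formation lay on the nuclear side. All 30 were called higher in nuclear libraries, with a median of 1.58 and a median span of 1175 kb, and 27 were so called after background subtraction. Their summed level was 5699 to 10080 CPM in nuclear and 2589 to 3613 CPM in RiboTag libraries. Very long genes of any function lay there too. Of 494 protein-coding genes over 300 kb and above 1 FPM in both kinds, 367 were called higher in nuclear and 61 in RiboTag libraries, with a median of 1.38. Nrxn3, a presynaptic adhesion molecule of 1610 kb, had 506, 680.1, 684, 303 and 548 CPM in nuclear and 258 to 333 CPM in RiboTag libraries (0.92 ± 0.175). The receptor phosphatase Ptprd rose by 2.49 ± 0.17 and Csmd1, a complement-related membrane protein gene, by 2.00 ± 0.178. In nuclear libraries these 3 genes lay at 4.62, 2.72 and 4.41 times the background density.

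Other long genes had a nuclear density near the background. Dmd, the dystrophin gene of 2260 kb, had 152, 186, 158, 126 and 171 CPM in nuclear and 40.4 to 54.5 CPM in RiboTag libraries (1.69 ± 0.134), but its nuclear density was 0.954 times the background, and after subtraction its log2 fold change was −1.68. Pcdh15, a protocadherin of 1550 kb with the largest change on the list (3.23 ± 0.129), lay at 1.59 times the background and kept a value of 2.70. By the naming rule, the protein-coding genes furthest to the nuclear side were Megf11 (3.49 ± 0.126), Ankfn1 (3.37 ± 0.127), Arhgef28 (3.19 ± 0.138), Camkmt (3.08 ± 0.137), Vav3 (2.91 ± 0.13), Zfp618 (2.75 ± 0.13), Ano4 (2.66 ± 0.144), Tns1 (2.62 ± 0.134), Daam2 (2.59 ± 0.185) and Btbd11 (2.54 ± 0.155). They span 108 to 396 kb and had nuclear densities of 1.59 to 3.84 times the background, with values of 2.40 to 3.61 after its subtraction. Megf11, a membrane protein with EGF-like domains, had 53.0 to 62.4 CPM in nuclear and 4.36 to 5.52 CPM in RiboTag libraries, and the groups did not overlap.

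Among protein-coding genes that passed 1 FPM in both pools, longer genes lay further to the nuclear side. The median nuclear density of all genes that passed in both was only 2.67 times the background, and the background estimate, set per kb, grows with span. Over the 9088 protein-coding genes above 1 FPM in both kinds of library, the log2 fold change and the log10 span had a Pearson r of 0.674 and a Spearman rho of 0.653 across genes, which share the same libraries and are not independent. After background subtraction these were 0.538 and 0.594. The median log2 fold change went from −3.99 in the 12 genes under 1 kb to −2.90 in 1556 genes of 1 to 10 kb, −1.35 in 4107 of 10 to 50 kb, −0.57 in 1572 of 50 to 100 kb, 0.28 in 1347 of 100 to 300 kb and 1.38 in 494 genes over 300 kb. Of genes of 1 to 10 kb, 2 were called higher in nuclear and 1546 in RiboTag libraries, whereas over 300 kb the counts were 367 and 61. Over all protein-coding genes tested the order did not hold, with medians of 3.14, 2.92, 0.79, 0.70, 1.20 and 1.62 from the shortest to the longest class. Many of the short genes passed the filter in nuclear libraries alone, 4556 of 6133 in the class of 1 to 10 kb.

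**Figure D4:**
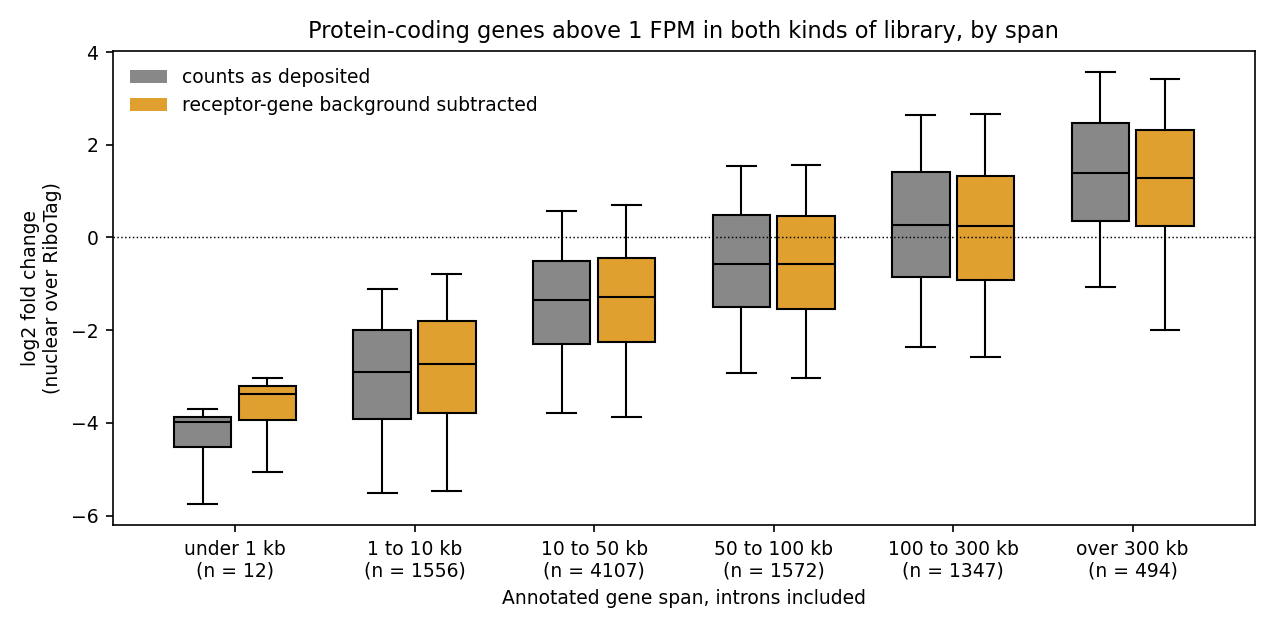
Log2 fold change, nuclear over RiboTag, of 9088 protein-coding genes above 1 FPM in both kinds of library by class of gene span, with boxes for the quartiles and whiskers from the 5th to the 95th percentile, grey for counts as deposited and orange after background subtraction. In the counts as deposited, medians rise from −3.99 under 1 kb to 1.38 over 300 kb.

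The share of the span that is exon ran the other way, with a Spearman rho of −0.613 across the same genes and −0.548 after background subtraction. Within the class of 10 to 50 kb, the median was −0.61 in 77 genes with up to 5% exon, −0.76 in 366 genes with 5 to 10%, −1.26 in 2159 genes with 10 to 25% and −1.61 in 1505 genes with more. The 169 genes above 1 FPM in both kinds whose annotation is a single exon block, and which have no intron to count, were all called higher in RiboTag libraries, with a median of −4.13. Of all 630 such genes tested, of which 428 passed 1 FPM in nuclear libraries alone, 294 were called higher in nuclear and 286 in RiboTag libraries. Whole-gene counts hold introns, so span and intron content cannot be told apart from the level of the mature mRNA here.

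Non-coding RNAs that act in the nucleus were on the nuclear side, with exceptions. Of 16 such long non-coding RNAs, 12 (75%) were called higher in nuclear and 3 (18.8%) in RiboTag libraries, near the 67.4 and 24.5% of all genes tested. Of the 13 above 1 FPM in both kinds, 9 were called higher in nuclear and 3 in RiboTag libraries. Among all such genes the shares were 18.9 and 68.3%. The median of the 13 was 1.47 against −1.21 for all such genes. Malat1, an abundant RNA of nuclear speckles, had 809, 1816, 1645, 483 and 1875 CPM in nuclear and 522 to 894 CPM in RiboTag libraries (0.96 ± 0.257, edgeR adjusted p = 0.00122). The groups overlapped, since nuclear library 1 lay within and library 5 below the RiboTag range, although Malat1 reached 2650 times the background density. Meg3, an imprinted nuclear RNA of neurons, had 269, 549, 488, 186 and 689 CPM against 141 to 216 CPM (1.30 ± 0.233), with library 5 again within the RiboTag range.

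Other nuclear RNAs had larger changes at lower levels. Neat1, the scaffold of paraspeckles, had 6.52, 8.98, 9.95, 5.80 and 7.97 CPM in nuclear and 1.15 to 2.16 CPM in RiboTag libraries (2.38 ± 0.19). Miat, a neuronal nuclear RNA, changed by 2.26 ± 0.235, Kcnq1ot1, the antisense RNA of an imprinted domain, by 1.77 ± 0.18, Mirg, from the Meg3 locus, by 3.30 ± 0.27, and Snhg11 by 1.70 ± 0.216. Pvt1 had the largest change on the list to the nuclear side (3.73 ± 0.128), at 2.17 times the background density. Rian, also from the Meg3 locus, missed the threshold with 30.7 to 106 CPM against 50.4 to 56.1 CPM (0.41 ± 0.199, edgeR adjusted p = 0.0553), and it was called without nuclear library 1 (0.49), 5 (0.56) or 7 (0.42).

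The exceptions were Peg13, Tug1 and Dlx6os1. Peg13, an imprinted RNA of 4.72 kb, had 1.06 to 2.29 CPM in nuclear and 54.0 to 64.8 CPM in RiboTag libraries (−5.19 ± 0.192). Tug1, of 9.89 kb, had 0.847 to 2.06 CPM against 34.6 to 40.2 CPM (−4.56 ± 0.171). All 3 overlap other genes, and fragments were counted without strand, so that their counts may include those of a neighbour.

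By annotation class, 3661 of 3918 lincRNAs (93.4%) were called higher in nuclear and 143 (3.65%) in RiboTag libraries. Of 2436 antisense genes, 1609 (66.1%) were higher in nuclear and 572 (23.5%) in RiboTag libraries, near the 67.4 and 24.5% of all genes tested. Among the 494 antisense genes above 1 FPM in both kinds, 56 were called higher in nuclear and 382 in RiboTag libraries, with a median of −1.75. Most lincRNAs were seen in nuclear libraries alone, and among the 166 above 1 FPM in both kinds, 57 were called higher in nuclear and 95 in RiboTag libraries, with a median of −1.15. The median nuclear density of tested lincRNAs was 1.84 times the background, below the 2.22 of all genes. Of long non-coding genes free of overlaps and above 1 FPM in every library, the furthest to the nuclear side were 2610035D17Rik (2.67 ± 0.149), Gm45881 (2.22 ± 0.146), Gm13052 (1.95 ± 0.179), D030068K23Rik (1.77 ± 0.137) and C130073E24Rik (1.57 ± 0.169). The last of these lay at 1.13 times the background and had a value of −0.52 after subtraction. Furthest to the RiboTag side were Gm19951 (−7.03 ± 0.401), 2900097C17Rik (−6.28 ± 0.274), Dbpht2 (−5.35 ± 0.197), 1700020I14Rik (−4.43 ± 0.197) and 3300002P13Rik (−3.71 ± 0.149), all in genes of at most 13.2 kb.

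Small RNAs were divided. Of 72 snoRNA genes, which guide the modification of ribosomal RNA in the nucleolus, 62 were called higher in nuclear and 2 in RiboTag libraries, and of 30 snRNA genes, of the spliceosome, 26 and 0. Since 71 of the former and all 30 of the latter passed 1 FPM in nuclear libraries alone, the filter largely set these counts. Of 12 host genes of snoRNAs, 11 of which passed in nuclear libraries alone, 8 were higher in nuclear libraries and none in RiboTag libraries, near the 67.4% of all genes. Among them were Snhg18 (0.506 to 0.847 CPM against 0 to 0.16 CPM, 4.26 ± 0.664) and Snhg3 (0.847 to 1.31 CPM against 0 to 0.202 CPM, 3.52 ± 0.446). Rmrp, the RNA of the nucleolar ribonuclease MRP, had 2.79, 7.77, 4.27, 1.58 and 5.08 CPM in nuclear and 0 to 0.405 CPM in RiboTag libraries (4.60 ± 0.54).

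Rn7s1 and Rn7s2, copies of the RNA of the signal recognition particle, which binds ribosomes, were instead higher in RiboTag libraries. Rn7s1 had 0.405, 1.17, 0.713, 0.215 and 0.0706 CPM in nuclear and 161 to 188 CPM in RiboTag libraries (−8.20 ± 0.344), and Rn7s2 had 0.451 to 1.65 CPM against 54.0 to 70.3 CPM (−5.99 ± 0.26). Their sequences are nearly the same, so the split between them is uncertain. Rn7sk, an RNA of nuclear transcription control (−2.08 ± 0.218), and Rpph1, the RNA of ribonuclease P (−2.44 ± 0.216), were also lower in nuclear libraries, though at 385 and 235 times the background density there. In the D1-MSN libraries compared further below, both lay the other way, at 2.03 and 2.93. Their differences, D2 minus D1, were −4.09 and −5.33 (edgeR adjusted p = 0.00026 and 0.000267). Gm10800, a gene of 0.755 kb, had 710, 419, 377, 653 and 428 CPM in nuclear libraries and no count in any RiboTag library, which makes it at least 1008-fold higher in the lowest nuclear library than the highest RiboTag floor.

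Genes that regulate RNA and chromatin leaned to the RiboTag side like most shared genes. Of 40 splicing regulators, 33 were called higher in RiboTag and 2 in nuclear libraries, with a median of −1.84. Hnrnpk, an RNA-binding protein, had 2.75 to 5.89 against 108 to 121 CPM (−4.68 ± 0.186), Ddx5, an RNA helicase, had the highest CPM (−3.61 ± 0.274), and Srrm2, a speckle protein, changed by −1.85 ± 0.216. Srrm4, which promotes neuronal microexons, was higher in nuclear libraries, with 33.6, 52.5, 43.9, 39.0 and 54.6 CPM against 7.44 to 10.9 CPM (2.28 ± 0.145). Of 39 chromatin regulators, 32 were higher in RiboTag and 4 in nuclear libraries, with a median of −1.51, from Chd3, a remodeller (−4.11 ± 0.193), to the histone deacetylase gene Hdac9 of 870 kb (2.92 ± 0.129).

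Of 67 replication-type histone genes, 17 were tested, and 15 of these were called higher in RiboTag and 1 in nuclear libraries. Hist2h2aa1 had 0.282 CPM at most in nuclear and 14.1 to 21.3 CPM in RiboTag libraries (−7.96 ± 0.287). Many of these genes are close copies and their counts are uncertain. Zinc finger genes lay near the middle, with 136 of 388 higher in nuclear and 174 in RiboTag libraries, and a median of −0.99 over the 202 above 1 FPM in both kinds. Zfp706 (−4.0 ± 0.162) had the largest change to the RiboTag side, and Zfp106 the highest CPM, with 9.48 to 15.3 against 110 to 141 CPM (−3.29 ± 0.152).

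Ion channels and receptors, many of them encoded by long genes, were divided. Of 50 pore subunits of voltage-gated channels, 25 were called higher in nuclear and 20 in RiboTag libraries, with a median of −0.50 over 37 members that was 0.76 when shared genes alone set the scale. Kcna5, a potassium channel gene of 2.86 kb, changed by −5.15 ± 0.206, while Cacna1e, an R-type calcium channel gene of 494 kb and the highest of the list by CPM, had 136, 174, 166, 101 and 159 against 303 to 354 CPM. Its value of −1.15 ± 0.151 became 0.09 when shared genes alone set the scale. Of 37 glutamate and GABA-A receptor subunits, 14 were higher in nuclear and 17 in RiboTag libraries, with a median of −0.64 over 32 members that was 0.59 on the scale of shared genes. Grin1, the obligate NMDA receptor subunit, had 14.7 to 41.3 against 214 to 247 CPM (−2.97 ± 0.218), and Grin2b, its partner of 460 kb, 115 to 233 against 652 to 796 CPM (−1.92 ± 0.179).

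Markers of cells other than MSNs differed in direction. The filter bears on these counts, since all 8 endothelial, 7 of 9 microglia, 6 of 10 astrocyte, 5 of 9 oligodendrocyte and 4 of 6 cortical excitatory markers passed 1 FPM in nuclear libraries alone. Over all genes tested, 67.4% were called higher in nuclear and 24.5% in RiboTag libraries. All 8 endothelial markers were called higher in nuclear libraries, with summed levels of 68.3 to 82.8 CPM against 2.98 to 4.4 CPM, and their median nuclear density was 2.06 times the background, slightly under that of all genes tested. Pecam1, an endothelial adhesion molecule, had 14 to 17.9 CPM in nuclear and 0 to 0.405 CPM in RiboTag libraries (5.97 ± 0.235), and Flt1, a VEGF receptor, changed by 4.77 ± 0.171. Of 9 microglia markers, 7 were higher in nuclear and 1 in RiboTag libraries, with summed levels of 91.9 to 245 CPM against 42.8 to 51.4 CPM. Cx3cr1, the fractalkine receptor, overlapped between groups at 29.8 to 33.7 and 27.1 to 33.0 CPM (0.08 ± 0.111, edgeR adjusted p = 0.513), with a value under 0 by upper quartile scaling.

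Of 10 astrocyte markers, 7 were called higher in nuclear and 1 in RiboTag libraries, with summed levels of 152 to 293 and 147 to 200.1 CPM. Their nuclear share of 70% lay near the 67.4% of all genes tested. Aldh1l1 (4.04 ± 0.188) and Gfap (2.85 ± 0.244) were higher in nuclear libraries, the latter at 2.40 to 3.39 CPM against 0.249 to 0.64 CPM, Aldoc was higher in RiboTag libraries (−1.72 ± 0.205), and Slc1a2, a glutamate transporter, overlapped at 50.2 to 128 and 66.7 to 102 CPM (0.16 ± 0.191). Of 9 oligodendrocyte markers, 7 were higher in nuclear and 1 in RiboTag libraries, with sums of 88.1 to 216 and 104 to 168 CPM. Mbp, a myelin protein gene, had 39.5, 67.7, 82.2, 37.4 and 87.5 CPM against 20.8 to 36.4 CPM (1.07 ± 0.196), and Cnp was higher in RiboTag libraries (−2.82 ± 0.165).

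Of 9 interneuron markers tested, 6 (66.7%) were higher in nuclear and 3 (33.3%) in RiboTag libraries, beside 67.4 and 24.5% of all genes tested. Sst (somatostatin, 0.698 to 1.63 against 8.35 to 20.1 CPM, −3.74 ± 0.223) and Npy (neuropeptide Y, 1.16 to 1.55 against 3.99 to 12.1 CPM, −2.36 ± 0.214) were higher in RiboTag libraries. Chat, the acetylcholine-making enzyme of cholinergic interneurons, had 8.55 to 10.4 against 4.61 to 6.78 CPM (0.74 ± 0.128). Other cholinergic genes of the list lay the other way, Slc5a7, the choline transporter, with 1.90 to 2.63 against 5.68 to 7.50 CPM (−1.44 ± 0.14), and Slc18a3, the vesicular acetylcholine transporter, which did not pass the filter, with 0 to 0.217 against 0.866 to 2.64 CPM. Pvalb had 2.14 to 3.03 against 0.0954 to 0.881 CPM (3.01 ± 0.325). Of 6 cortical excitatory markers, 2 were higher in nuclear and 1 in RiboTag libraries, with sums of 37.8 to 54.7 and 5.06 to 42.2 CPM. The part of RNA from such cells in the results above was not tested. Thy1, whose promoter drives the reporter of the nuclear mice, had 8.66 to 13 CPM in nuclear and 103 to 127 CPM in RiboTag libraries (−3.46 ± 0.149), with 28.2 times the background density in nuclear libraries, and how many of its nuclear counts come from the reporter was not tested.

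The same contrast in D1-MSNs (6 nuclear and 6 RiboTag libraries labelled male) showed where D2-MSNs differed. The nuclear minus RiboTag difference differed between the cell types in 5255 of 33289 genes tested (15.8%), by edgeR's test of the interaction of method and cell type, with 1098 higher (3.3%) and 4157 lower (12.5%) in D2-MSNs. Among genes above 1 FPM in both kinds of D2 library the median difference, D2 minus D1, was −0.513, and it was −0.014 when genes detected in all groups set the scale. Leaving out any 1 of the 5 nuclear D2 libraries moved the median to between −0.716 and −0.798, with 495 to 588 genes higher and 5175 to 5758 lower in D2-MSNs. The background estimate was 0.527 to 21.6% of counts in nuclear D1 libraries and 31.6 to 50.6% in nuclear D2 libraries. After background subtraction the median difference was −0.455, with 1309 genes higher and 3472 lower in D2-MSNs of 31486. Single genes are best read against that median.

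The 5 D2-MSN markers analysed all had a lower value in D2-MSNs. For Penk the log2 fold change was −1.87 in D1-MSNs, and the difference was −5.63 (edgeR adjusted p = 2.15e-05). Gpr6 (−4.0), Adora2a (−3.39), Sp9 (−2.20) and Drd2 (−1.84) had differences in the same direction, and Drd2 was higher in nuclear libraries of D1-MSNs by 1.18. Among D1-MSN markers, Pdyn (1.54), Isl1 (2.14), Ebf1 (1.98) and Eya1 (1.69) differed upwards, while Drd1 (−0.71, adjusted p = 0.296), Tac1 (0.07) and Chrm4 (−0.29) did not pass the test.

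Markers that both cell types share differed as well, and in 1 direction. All 12 had a lower value in D2-MSNs, from −1.23 (Arpp21) and −1.25 (Bcl11b) to −2.84 (Rasd2) and −3.03 (Ppp1r1b) among those named, and all passed the test. Actb (−3.89) and Ubb (−4.60), which are not particular to neurons, differed in the same direction. Of 4 genes of the mitochondrial genome, 3 lay on opposite sides in the cell types: mt-Nd5 was at 1.26, mt-Co1 at 0.973 and mt-Nd2 at 1.95 in D1-MSNs but at −3.53, −4.18 and −2.77 in D2-MSNs of the same fit, with differences of −4.79, −5.15 and −4.73. The other, mt-Atp6, was on the RiboTag side in both, at −6.80 in D1-MSNs and −11.3 in D2-MSNs. Malat1 (2.51 in D1-MSNs, difference −1.55), Meg3 (−1.52) and Nrxn3 (2.17 in D1-MSNs, difference −1.23) had a smaller nuclear excess in D2-MSNs. After background subtraction, the differences for Malat1 (−0.88, adjusted p = 0.107) and Meg3 (−0.84, adjusted p = 0.112) no longer passed the test.

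**Figure D5:**
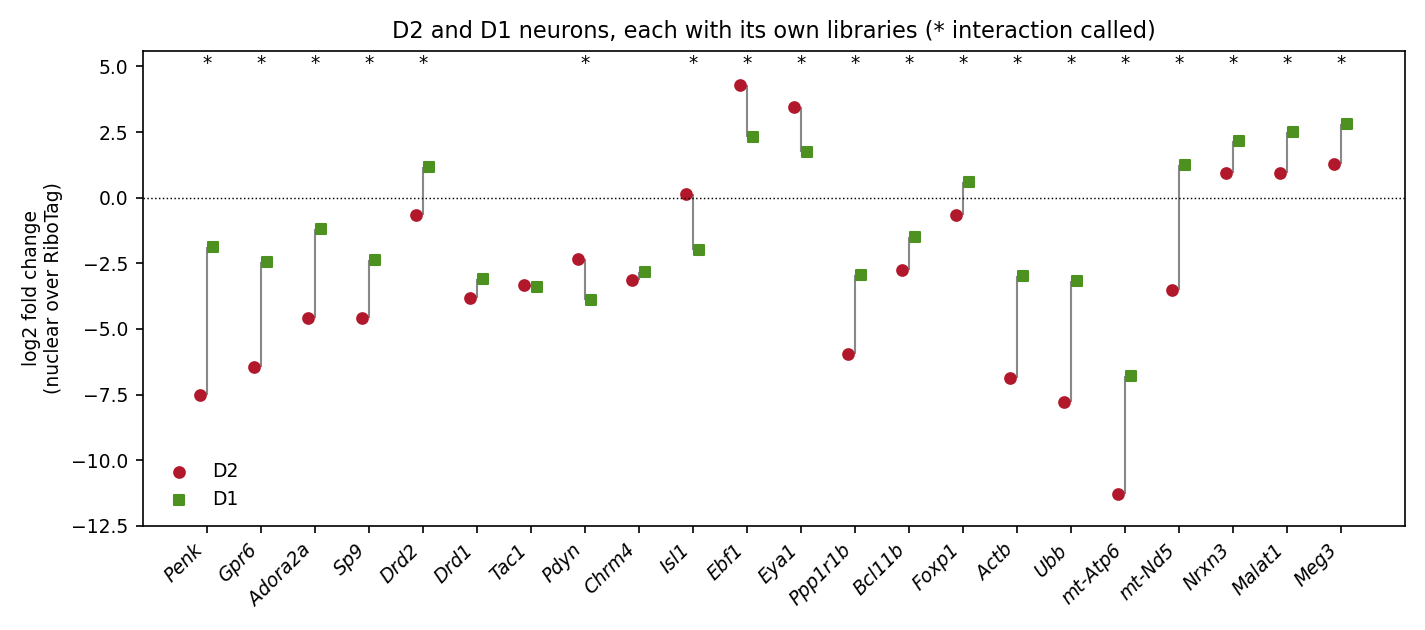
Log2 fold change, nuclear over RiboTag, in D1-MSNs and in D2-MSNs for MSN markers and named genes, from 1 fit over 23 libraries, with asterisks where the difference between cell types was called. Circles stand for D2-MSNs and squares for D1-MSNs. Penk lies furthest apart of the genes plotted, with a difference of −5.63, and mt-Nd5 lies at 1.26 in D1-MSNs and −3.53 in D2-MSNs.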

How the data were processed

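D2-MSN libraries from mice labelled male, 5 nuclear and 6 RiboTag, were compared. Per the labels, the authors aligned reads with HISAT2 2.0.5 to GRCm38 and counted fragments with featureCounts, and the deposited table holds the raw count of each gene over its whole body, without regard to strand, on Ensembl release 90. Libraries were ribosome-depleted. The table has 1 column that matches no sample title, which was not used. Of 52636 genes, 52489 (99.72%) were matched by identifier to GENCODE release M21 (21) of the same build for span, exons and biotype.

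The test kept genes above 1 FPM in 2 or more of the 11 libraries. Counts were tested in R 4.3.3 with edgeR 4.0.16 (TMM scaling, quasi-likelihood test, Benjamini-Hochberg adjustment over all genes tested), with genes called at an adjusted p of at most 0.05 and an absolute log2 fold change above 0.38. Standard errors were derived from the F statistic (absolute log2 fold change over its square root). FPKM was CPM per kb of span. The interaction was fitted on 23 libraries. DESeq2 1.42.0 served as an alternative, and figures and summaries were made in Python 3.11.15 with pandas 2.3.3, NumPy 2.4.6 and matplotlib 3.10.9. Tested on simulated data with 200 genes changed by 1.5 on the log2 scale, the comparison recovered 75% of these genes. Of its calls, 5.66% were false over 32679 genes. The interaction recovered 20.5% with 0% false over 33289 genes. In the 11 libraries 91.8% of genes were called, and the share of false calls among these was not tested.

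Background per kb came from 1429 receptor genes. No pair of libraries agreed within counting noise (chi-square per degree of freedom 6.15 to 89.1 in nuclear and 2.3 to 6.96 in RiboTag pairs). The study states that each sample came from another mouse. The comparison, its 33 gene lists and its settings were chosen with earlier results of these data known. Named genes are the markers and altered loci, the 10 highest genes of either group, the 10 protein-coding and 5 non-coding genes with the largest change each way among those free of overlaps and above 1 FPM in every library, and the extremes, the highest member and, for lists of at most 12 genes, each member of a list, leaving out Xist and Y-linked genes and a few genes that are counted in the lists but not reported by name here. Another 27 were named after their values were seen. Alternatives were DESeq2, its size factors, upper quartile scaling, scaling without the 10 highest genes or on protein-coding genes, other filters, no overlapping genes, background subtraction, RiboTag libraries labelled female, and each library left out. Counts on exons alone and the marker Gpr52 were not analysed here.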

Additional observations from a re-analysis of the deposited data

Results flagged for a closer look

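Single libraries stood apart from the rest of their group in 13 of 301 groups of values by Dixon's test, which chance gives in about 1 of 20 groups. Nuclear library 7 had a total of 3701255 counts and a count on 34107 genes. It was also low for Isl1 (1.13 CPM, the others 1.86 to 2.28), Zfp706 (0.847, the others 2.02 to 2.53) and Kcna5 (0, the others 0.399 to 0.679). Nuclear library 5 was low for Drd1 (0.672 CPM, the others 1.54 to 2.09), Magee1 (0.205, the others 0.518 to 0.587) and Rn7sk (3.11, the others 9.34 to 12.2), and nuclear library 1 was high for C130073E24Rik (18.4, the others 12.9 to 14.3). Among RiboTag libraries, number 1 was low for Drd1 (13.1 CPM, the others 20.9 to 27.3) and Tac1 (14.4, the others 19.7 to 22.7), number 2 for Chd3 (249 CPM, the others 290 to 310) and number 4 for Pecam1 (0, the others 0.192 to 0.405).

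Of 32 named genes picked for this check, the nuclear minus RiboTag difference differed between D2- and D1-MSNs in 29, by the test of the interaction. It was lower in D2-MSNs for Penk (−5.63), Gpr6 (−4.0), Sp9 (−2.20), Adora2a (−3.39) and Drd2 (−1.84), for the shared MSN markers Ppp1r1b (−3.03), Rasd2 (−2.84), Pde1b (−2.34), Meis2 (−1.88), Gnal (−1.82), Rgs9 (−1.73), Adcy5 (−1.59), Pde10a (−1.41), Foxp1 (−1.26), Bcl11b (−1.25) and Arpp21 (−1.23), and for Ubb (−4.60), Actb (−3.89), mt-Co1 (−5.15), mt-Nd5 (−4.79), mt-Nd2 (−4.73), mt-Atp6 (−4.48), Malat1 (−1.55), Meg3 (−1.52) and Nrxn3 (−1.23). It was higher for Isl1 (2.14), Ebf1 (1.98), Eya1 (1.69) and Pdyn (1.54). Nuclear D2 libraries held 31.6 to 50.6% and nuclear D1 libraries 0.527 to 21.6% background by the receptor genes. After background subtraction, 27 of these 29 differences were still called, and those for Malat1 (−0.88) and Meg3 (−0.84) were not. The remaining named genes were not gone through in this check, and some of them also passed the test, such as Cox5b (−4.36, edgeR adjusted p = 0.000267).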

How the results depend on the processing

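Of 145 genes named, 129 kept their direction and their side of the threshold under every alternative in which they were tested. Not every gene was tested in each, and the setting without overlapping genes held only 61 of them. When genes detected in both groups alone set the scale, 4293 genes were higher in nuclear and 4040 in RiboTag libraries of 10069, and leaving out overlapping genes gave 11707 and 2786 of 15475. DESeq2 gave 23155 and 6905. Without 1 nuclear library at a time the counts were 21081 to 21757 and 7692 to 7869, and without 1 RiboTag library 21825 to 21923 and 7889 to 8014. The interaction called 2303 genes higher in D2-MSNs with DESeq2, 1989 higher and 2309 lower of 9826 with genes detected in all groups, and 495 to 588 higher when a nuclear D2 library was left out, a change that no single library decided. Directions turned for Drd2 (0.54 on the scale of shared genes, 0.05 after background subtraction), Foxp1 (0.56), Arpp21 (0.03), Cacna1e (0.09) and P2ry12 (0.52) on the scale of shared genes, for Dmd (−1.68) and C130073E24Rik (−0.52) after background subtraction, and for Isl1 with RiboTag libraries labelled female (−0.59). Cx3cr1 had −0.03 by upper quartile scaling and −0.01 with female libraries. The interaction of Tac1 was −0.35 to −0.08 when a nuclear library was left out, and that of Chrm4 0.23 on the scale of genes in all groups and 0.15 after background subtraction. List medians turned for astrocyte markers (−0.01 by upper quartile scaling, −0.55 without overlapping genes, −0.01 to 0.2 without 1 nuclear library at a time, lowest without library 3, −0.01 with female libraries), oligodendrocyte markers (−0.12 without overlapping genes, −0.02 to 0.36 without 1 nuclear library at a time, lowest without library 3), interneuron markers (−1.13 without overlapping genes), glutamate and GABA-A receptors (0.59) and voltage-gated channels (0.76), the last 2 on the scale of shared genes. The causes were not tested. No paired analysis was possible because the nuclear columns carry numbers that differ from the replicate numbers of their titles, and each sample came from another mouse. The depth of nuclear library 7 and the small share of RiboTag counts outside the ribosomal RNA locus limit genes near the floor.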
